A study of Mus musculus with 8 samples.

Results

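The SF3A and SF3B complexes of the U2 small nuclear ribonucleoprotein (snRNP) were followed through the genes of their 10 protein subunits. These were Sf3a1, Sf3a2 and Sf3a3 for SF3A, and Sf3b1, Sf3b2, Sf3b3, Sf3b4, Sf3b5, Sf3b6 and Phf5a for SF3B. They were chosen by name, and all 10 were present in the table of 55385 genes and among the 17445 genes that passed the filter on low counts. RNA was sequenced from R1 mouse embryonic stem cells (mESCs), a wild-type line, that carried a short hairpin RNA (shRNA) delivered by virus. The groups were shRNA1 (3 libraries) and shRNA2 (3 libraries), which both target Eftud2, and the non-targeting control nt-shRNA (2 libraries). Per the study's description, shRNA1 matches the 3′ untranslated region of Eftud2 and shRNA2 its coding sequence. Cells of every group were infected for 2 days and selected with puromycin for 3 days, in N2B27 medium with 2 kinase inhibitors and LIF. The labels number the libraries of a group as biological replicates, but the sources used here do not say whether they came from separate cultures, so p-values measure the spread between these libraries only.

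In the spliceosome, the U2 snRNP pairs with the branch site of the intron, the sequence whose adenosine attacks the 5′ splice site. SF3A and SF3B are the protein parts that build the mature U2 snRNP and hold the branch-site helix. Sf3b1 forms the ring-shaped scaffold around it, Phf5a completes the pocket for the branch-point adenosine, and Sf3a3 bridges to the U2 RNA. EFTUD2, the protein whose gene was targeted here, is a GTPase of a different particle, the U5 snRNP. SF3B is also part of the U11/U12 di-snRNP that recognises the rarer minor introns, whereas SF3A is not.

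Library totals ran from 19569525 to 29871048 counted fragments. Levels are given as CPM, the count of a gene relative to its library total after scaling by the trimmed mean of M-values (TMM). Eftud2 (ENSMUSG00000020929.14) stood at 262 and 256 CPM in nt-shRNA, at 232, 229 and 225 CPM in shRNA1, and at 198, 202 and 235 CPM in shRNA2. Every knockdown library was thus below both controls, while shRNA2 replicate 3 lay above all 3 shRNA1 libraries. The log2 fold change was -0.29 ± 0.07 (SE) in shRNA2 (edgeR adjusted p = 0.00122) and -0.18 ± 0.07 in shRNA1 (adjusted p = 0.0514), and the hairpins did not differ by the test (-0.11, adjusted p = 0.164). Without shRNA2 replicate 3 that difference was -0.19 (adjusted p = 0.0127), and Eftud2 then passed the threshold in shRNA1 (adjusted p = 0.0215), as it did without shRNA2 replicate 2 (adjusted p = 0.0415). With library size alone the shRNA1 change of Eftud2 was -0.06 (adjusted p = 0.498).

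The cells carried mESC markers in every group. The summed level of 8 naive mESC markers (Pou5f1, Sox2, Nanog, Klf2, Klf4, Esrrb, Zfp42 and Tfcp2l1) was 4313 to 4379 CPM in nt-shRNA, 4785 to 4921 CPM in shRNA1 and 5672 to 5821 CPM in shRNA2. Of the 8, 6 rose and 1 fell in shRNA2, and 4 rose and 1 fell in shRNA1. Set against shRNA1, 5 were higher and 0 lower in shRNA2. Of all tested genes, 27.2% rose and 28.7% fell in shRNA2, 13.8% and 17.1% in shRNA1, and 16.9% and 18.7% between the hairpins. Markers of feeder fibroblasts, 7 genes of which 3 were tested, summed to 4.59 to 5.02 CPM in nt-shRNA, 6.51 to 7.34 CPM in shRNA1 and 6.27 to 7.56 CPM in shRNA2, and 1 gene rose in each knockdown. Those of primitive endoderm, 5 genes, summed to 44.3 to 45.8 CPM in nt-shRNA, 42.2 to 48.4 CPM in shRNA1 and 34.8 to 41.1 CPM in shRNA2, where 1 gene fell against nt-shRNA and 3 were lower than in shRNA1. Markers of the two-cell-like state, a rare and transient state of mESC cultures, also moved with the hairpins. Their sum over 6 genes was 8.35 to 9.10 CPM in nt-shRNA, 40.6 to 58.6 CPM in shRNA1 and 33.1 to 43.3 CPM in shRNA2, and all 5 tested genes rose in both knockdowns. No gene of these marker lists was at 0 in all libraries. The part of these markers in the results for SF3A and SF3B was not tested, and in bulk RNA fewer cells of a type and less RNA per cell cannot be told apart.

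In shRNA2, 6 of the 10 subunit genes rose against nt-shRNA, 1 fell and 3 did not pass the test. The 6 were Sf3b3, Phf5a, Sf3b4, Sf3a2, Sf3a3 and Sf3a1, by 26.4% to 50.5%, and the one that fell was Sf3b5, by 18.8%. Of all 17445 tested genes 27.2% rose and 28.7% fell in this comparison, so that 55.9% were called in either direction. The median log2 fold change was 0.37 over the 10 genes and 0.00 over all tested genes. In shRNA1, 2 members rose (Sf3b3 and Phf5a), 1 fell (Sf3b5) and 7 did not pass, with a median of 0.07, beside 13.8% of all genes called higher, 17.1% called lower and 30.9% called in either direction. Both comparisons use the same 2 nt-shRNA libraries. Set directly against shRNA1, without the control levels, shRNA2 had 6 members higher and 0 lower by edgeR (7 and 0 at an unadjusted p under 0.05, and 6 and 0 by DESeq2), with a median of 0.31. Of all genes 16.9% were higher and 18.7% lower there, or 35.6% in either direction.

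The counts in shRNA1 were the least settled. Leaving out 1 library at a time gave 0 to 2 members higher and 0 to 1 lower, and scaling by library size alone gave 5 higher and 0 lower. Library size alone raised the median of all genes in shRNA1 to 0.11 and turned the split of all calls from 2407 higher and 2981 lower to 4101 higher and 1713 lower. In shRNA2 it turned 4748 higher and 5010 lower into 5850 and 4077, while the member counts became 7 higher and 1 lower.

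**Figure D1:**
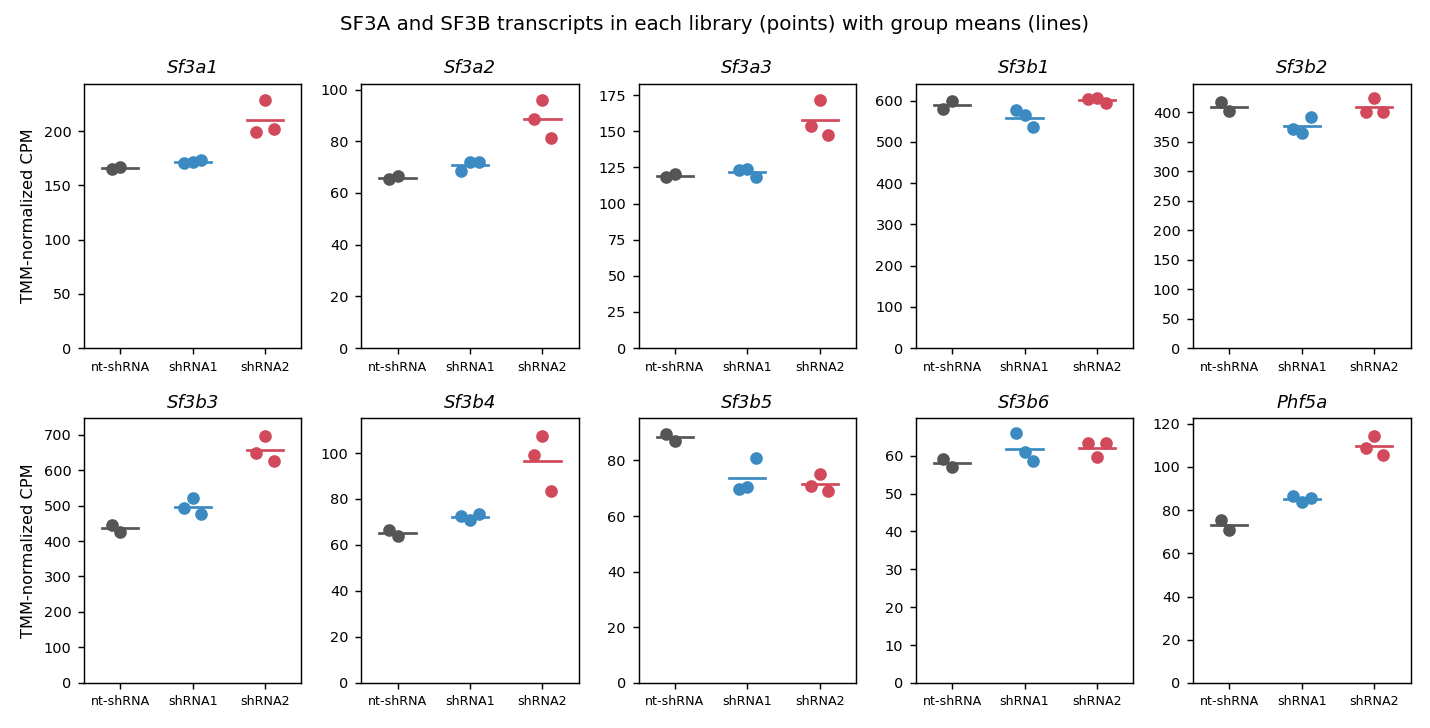
TMM-normalized CPM (linear axis from 0) of the 10 SF3A and SF3B genes in the 2 nt-shRNA, 3 shRNA1 and 3 shRNA2 libraries; each point is a library and each line the group mean. Sf3a1, Sf3a2, Sf3a3, Sf3b3, Sf3b4 and Phf5a are highest in all 3 shRNA2 libraries, Sf3b5 is highest in the controls, the shRNA2 and nt-shRNA points of Sf3b1 and of Sf3b2 overlap, and those of Sf3b6 lie close together.

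All 3 SF3A genes rose in shRNA2, and none passed the test in shRNA1 by edgeR (0 at an unadjusted p under 0.05, and 0 by DESeq2). Sf3a1 (ENSMUSG00000002129.11, GRCm38 chr11:4160350-4182541, plus strand) encodes the subunit that connects SF3A with the U1 snRNP side of the early spliceosome. Its level was 166 and 167 CPM in nt-shRNA, 171, 172 and 173 CPM in shRNA1, and 199, 229 and 202 CPM in shRNA2. The shRNA2 libraries lay above the other 5, whose highest was at 173 CPM. Its log2 fold change was 0.34 ± 0.06 (SE) in shRNA2 (adjusted p = 2.1e-04), 0.05 ± 0.06 in shRNA1 (adjusted p = 0.612) and 0.29 ± 0.06 between the hairpins (adjusted p = 7.8e-04).

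Sf3a2 (ENSMUSG00000020211.15, chr10:80798198-80804924, plus strand), the zinc finger subunit next to the branch helix, was at 65.3 and 66.5 CPM in nt-shRNA, 68.5, 72.1 and 71.8 CPM in shRNA1, and 88.6, 95.9 and 81.2 CPM in shRNA2. The 3 groups did not overlap and stood in that order. On the log2 scale the change was 0.43 ± 0.07 in shRNA2 (adjusted p = 5.2e-05), 0.10 ± 0.07 in shRNA1 (adjusted p = 0.29) and 0.32 ± 0.06 directly (adjusted p = 7.2e-04). Over the 19 alternatives the shRNA2 change ran from 0.37 to 0.67. Of its 2658 exon bases, 429 (16.1%) are shared with Plekhj1 on the opposite strand. Counting used no strand and dropped fragments shared by genes, so reads of the pair cannot be told apart there.

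Sf3a3 (ENSMUSG00000028902.4, chr4:124714776-124732460, plus strand), which contacts the U2 RNA, was at 118 and 120.5 CPM in nt-shRNA, 123, 124 and 119 CPM in shRNA1, and 154, 172 and 147 CPM in shRNA2. Control and shRNA1 libraries overlapped, and all 3 shRNA2 libraries were higher. The log2 fold change was 0.40 ± 0.07 in shRNA2 (adjusted p = 4.7e-05), 0.03 ± 0.07 in shRNA1 (adjusted p = 0.772) and 0.37 ± 0.06 directly (adjusted p = 1.2e-04). For Sf3a1, Sf3a2 and Sf3a3 the 95% intervals of the shRNA1 change were -0.09 to 0.18, -0.05 to 0.25 and -0.11 to 0.17.

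The SF3B genes split into those that rose, those near the control level, and Sf3b5. Sf3b3, Phf5a and Sf3b4 rose by amounts that differed by less than their SEs. Sf3b3 (ENSMUSG00000033732.10, chr8:110810239-110846787, minus strand), a scaffold protein built of beta-propellers that embraces Sf3b1, was at 446 and 426 CPM in nt-shRNA, 493, 521 and 477 CPM in shRNA1, and 647, 697 and 625 CPM in shRNA2. The groups stood apart, with shRNA1 between the controls and shRNA2. Its log2 fold change was 0.59 ± 0.07 in shRNA2 (adjusted p = 3.7e-07) and 0.40 ± 0.06 directly (adjusted p = 4.0e-05). In shRNA1 it was 0.19 ± 0.06 (adjusted p = 0.0333), a call lost without nt-shRNA replicate 1 (0.22, adjusted p = 0.0843) or 2 (0.15, adjusted p = 0.22), without shRNA1 replicate 1 (0.19, adjusted p = 0.0622) or 2 (0.15, adjusted p = 0.139), and with offsets for gene length (0.08, adjusted p = 0.365) or GC content (0.05, adjusted p = 0.544).

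Phf5a (ENSMUSG00000061360.8, chr15:81864520-81871911, minus strand), the small zinc finger protein at the branch-point pocket, was at 75.6 and 70.9 CPM in nt-shRNA, 86.8, 83.6 and 85.7 CPM in shRNA1, and 109, 114 and 105 CPM in shRNA2. Again the groups did not overlap and shRNA1 lay between the other 2. On the log2 scale the change was 0.58 ± 0.06 in shRNA2 (adjusted p = 3.6e-07), 0.22 ± 0.06 in shRNA1 (adjusted p = 0.0127) and 0.36 ± 0.06 directly (adjusted p = 1.0e-04). The shRNA1 call was lost without nt-shRNA replicate 2 (0.18, adjusted p = 0.164).

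Sf3b4 (ENSMUSG00000068856.3, chr3:96172332-96177564, plus strand) encodes an RNA-binding protein that contacts the pre-mRNA upstream of the branch site, and loss of 1 human copy causes Nager syndrome, a craniofacial disorder. It was at 66.4 and 63.9 CPM in nt-shRNA, 72.4, 71.0 and 73.3 CPM in shRNA1, and 99.1, 107 and 83.7 CPM in shRNA2. The shRNA2 libraries were the highest but also the most spread. The log2 fold change was 0.57 ± 0.08 in shRNA2 (adjusted p = 9.5e-06), 0.15 ± 0.08 in shRNA1 (adjusted p = 0.177, 95% interval -0.02 to 0.32) and 0.42 ± 0.07 directly (adjusted p = 2.4e-04). Sf3b4 and Sf3a2 also passed in shRNA1 with library size alone (0.26, adjusted p = 0.0167, and 0.22, adjusted p = 0.0248) and with GC content offsets, chosen after seeing the data (0.24, adjusted p = 0.0297, and 0.21, adjusted p = 0.027), and Sf3b4 with only the groups compared (0.17, adjusted p = 0.0456).

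The shRNA2 library with the highest Eftud2, replicate 3, had the lowest level of its group for 5 of the 6 genes that rose, the exception being Sf3a1. Every one of the 6 was higher in that library than in any control or shRNA1 library, but the 6 were picked as higher in shRNA2. Of all tested genes, 35.4% had every shRNA2 library above both controls, and 23.6% had every shRNA2 library above all shRNA1 libraries. Being lowest in replicate 3 was not particular to the members. Among the genes of related lists named below that rose in shRNA2, Smndc1, Rbm17, Snrpd3, Snrpf, Rnpc3 and Prpf8 were also lowest there. Ddx39b and Snrpa1 were not. The share over all genes that rose was not tabulated. The shRNA2 group holds 3 libraries, and no relation between Eftud2 and the subunit genes was tested across them.

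Sf3b1 (ENSMUSG00000025982.13, chr1:54985169-55027481, minus strand), the scaffold around the branch helix and the best known cancer gene of the complex, was at 580.4 and 599 CPM in nt-shRNA, 576, 565 and 535 CPM in shRNA1, and 603, 607 and 594 CPM in shRNA2. The shRNA2 libraries overlapped the controls, and the shRNA1 libraries lay below both. Its log2 fold change was 0.03 in shRNA2 (95% interval -0.09 to 0.15, adjusted p = 0.703), -0.08 in shRNA1 (-0.20 to 0.04, adjusted p = 0.332) and 0.11 directly (-0.00 to 0.22, adjusted p = 0.124). Offsets for gene length and base composition changed this result. With gene length offsets Sf3b1 was called lower in shRNA1 (-0.18, adjusted p = 0.022), but not when the replicate block was added to them. Sf3b1 transcripts had the lowest GC content of the 10 genes (40.5%), and with GC content offsets its log2 fold change was -0.22 in shRNA2 (adjusted p = 0.00161) and -0.27 in shRNA1 (adjusted p = 6.4e-04).

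Sf3b2 (ENSMUSG00000024853.10, chr19:5273932-5295455, minus strand), which binds Sf3b4, was at 417 and 401 CPM in nt-shRNA, 371, 365 and 391 CPM in shRNA1, and 400.5, 424 and 399.8 CPM in shRNA2. As for Sf3b1, only shRNA1 stood apart from the controls, below both. Its log2 fold change was -0.00 in shRNA2 (95% interval -0.13 to 0.12, adjusted p = 0.964), -0.12 in shRNA1 (-0.25 to 0.00, adjusted p = 0.127) and 0.12 directly (0.01 to 0.23, adjusted p = 0.0912). With gene length offsets Sf3b2 was called lower in shRNA1 (-0.18, adjusted p = 0.0329) and higher in the direct test (0.15, adjusted p = 0.0446). It also passed the direct test with GC content offsets (0.15, adjusted p = 0.014) and without shRNA1 replicate 3 (0.15, adjusted p = 0.0429).

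Sf3b6 (ENSMUSG00000037361.8, chr12:4817544-4827659, plus strand), also called p14, lies close to the branch-point adenosine. It was at 59.1 and 57.0 CPM in nt-shRNA, 66.1, 60.9 and 58.7 CPM in shRNA1, and 63.4, 59.7 and 63.3 CPM in shRNA2. The hairpin groups overlapped each other, and the lowest shRNA2 library was just above the higher control. On the log2 scale the change was 0.10 in shRNA2 (95% interval -0.05 to 0.24, adjusted p = 0.252), 0.09 in shRNA1 (-0.06 to 0.24, adjusted p = 0.344) and 0.01 directly (-0.13 to 0.14, adjusted p = 0.955). With GC content offsets the 2 changes against nt-shRNA were -0.11 and -0.08, and with library size alone Sf3b6 passed the test as higher in both (0.19, adjusted p = 0.0311, and 0.21, adjusted p = 0.0317).

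Sf3b5 (ENSMUSG00000078348.4, chr10:13005343-13009183, plus strand), a small protein that sits between Sf3b1 and Sf3b3, went the other way. It was at 89.6 and 87.0 CPM in nt-shRNA, 69.8, 70.5 and 81.0 CPM in shRNA1, and 70.9, 75.2 and 68.9 CPM in shRNA2. All 6 knockdown libraries were below both controls, and the hairpins overlapped each other. The log2 fold change was -0.30 ± 0.07 in shRNA2 (adjusted p = 0.00159), -0.26 ± 0.07 in shRNA1 (adjusted p = 0.0105) and -0.04 directly (95% interval -0.18 to 0.09, adjusted p = 0.643). Over the 19 alternatives it ran from -0.48 to -0.21 in shRNA2 and from -0.43 to -0.14 in shRNA1. The shRNA1 call was lost without shRNA1 replicate 1 (-0.22, adjusted p = 0.0526) or 2 (-0.23, adjusted p = 0.0596), without nt-shRNA replicate 1 (-0.24, adjusted p = 0.101) and with library size alone (-0.14, adjusted p = 0.126).

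Sf3b5 is also the only member annotated with a single exon, so its transcript carries no intron, whereas the other 9 have 5 to 24 merged exon blocks. Its coding sequence, of 261 bases and 86 codons before the stop, lies at chr10:13008623-13008883 on the plus strand of GRCm38. It is shown whole, from the GENCODE M21 transcript, because the subunit gene that fell is the one without an intron. Under alternatives, however, Sf3b1 (GC content offsets, or gene length offsets without the replicate block) and Sf3b2 (gene length offsets) were also called lower. Capitals mark the start and stop codons.
Sf3b5 coding sequence: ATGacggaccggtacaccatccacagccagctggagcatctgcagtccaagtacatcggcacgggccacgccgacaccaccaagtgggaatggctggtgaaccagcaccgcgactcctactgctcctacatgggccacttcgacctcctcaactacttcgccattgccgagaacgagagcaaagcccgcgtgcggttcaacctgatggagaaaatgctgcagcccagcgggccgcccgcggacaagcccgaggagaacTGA
The GENCODE exon spans 3841 bases, 3280 of them before the coding sequence, while the RefSeq gene spans 734 bases.

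**Figure D2:**
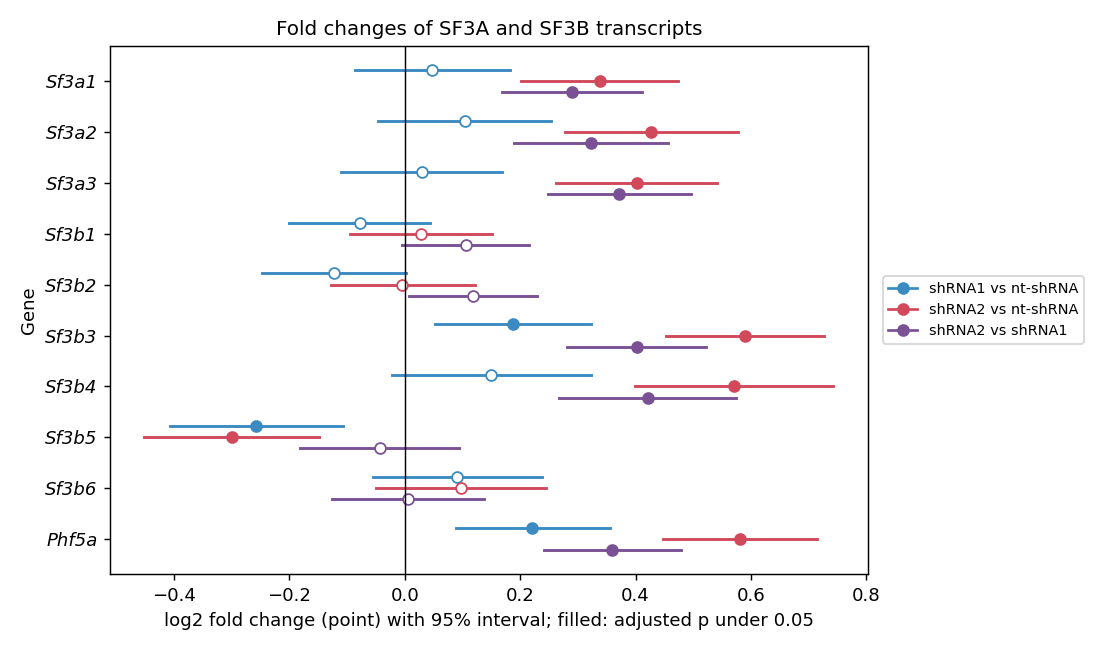
Log2 fold change (x axis) of each SF3A and SF3B gene in shRNA1 against nt-shRNA, shRNA2 against nt-shRNA and shRNA2 against shRNA1; points are edgeR estimates, lines their 95% intervals, and filled points have an adjusted p under 0.05. The shRNA2 intervals of 6 genes lie above 0, those of Sf3b1, Sf3b2 and Sf3b6 span 0, and that of Sf3b5 lies below 0 in both knockdowns.

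Group separation, counted without a model, set more members apart than the test called, most of all in shRNA1. The same held for all tested genes, of which 13.8% were called higher and 17.1% lower in shRNA1. Against nt-shRNA, every shRNA2 library was above both controls for 7 members and below both for 1, beside 35.4% and 36% of all tested genes. In shRNA1 the numbers were 5 above and 3 below, beside 26.6% and 30.2% of all tested genes. Between the hairpins, every shRNA2 library was above all shRNA1 libraries for 8 members and below them for 0, beside 23.6% and 24.1%. The 8 were the 6 called genes with Sf3b1 and Sf3b2, which did not pass the test. Summed over the 10 genes, the level was 2058 to 2081 CPM in nt-shRNA, 2063 to 2103 CPM in shRNA1 and 2368 to 2578 CPM in shRNA2.

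Profiles over the 8 libraries were compared by the root mean square difference of log2 CPM after centring each gene on its mean. The SF3A genes differed from each other by 0.045 to 0.053. Sf3b3 and Phf5a differed by 0.05, and both differed from Sf3b4 by 0.07. Between the SF3A genes and these SF3B genes the differences ran from 0.074 (Sf3a2 and Sf3b4) to 0.114 (Sf3a1 and Sf3b4), so the profiles did not split cleanly by complex. Sf3b1 and Sf3b2 differed by 0.06, and Sf3b5 was the most distant, up to 0.36 from Sf3b3. Phf5a had the smallest adjusted p in shRNA2, and the genes with profiles most like it among all 17445 were Ciapin1, Psmc4 and Trim28. Ciapin1, a protein of cytosolic iron-sulphur cluster assembly, was 0.04 from Phf5a and changed by 0.30 in shRNA1 and 0.63 in shRNA2 on the log2 scale. Psmc4, an ATPase of the proteasome cap, changed by 0.23 and 0.56, and Trim28, a co-repressor of retrotransposons, by 0.20 and 0.53. The profiles share their libraries and scaling, so the likeness is a description.

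Levels can be compared between genes only per length. Per kilobase of the deposited exon length, the nt-shRNA order was Sf3b2 (59.9 ± 1.59 CPM per kilobase, SD, n = 2), Sf3b1 (51.8 ± 1.16), Sf3a3 (42.8 ± 0.588), Sf3b3 (39.9 ± 1.29), Phf5a (33.8 ± 1.51), Sf3b4 (30.1 ± 0.826), Sf3a1 (27.0 ± 0.158), Sf3a2 (24.8 ± 0.312), Sf3b5 (23.0 ± 0.477) and Sf3b6 (20.3 ± 0.516). Neighbours in this order were separated by more than their summed SDs, which do not cover the choice of length. The length of Sf3a2 includes the 429 bases shared with Plekhj1, where fragments of both genes were dropped. Its level may therefore be understated, and its place below Sf3a1 is not settled. In shRNA2, Sf3b3 (60.1 ± 3.35, n = 3) stood level with Sf3b2 (59.7 ± 2.01) and Sf3a3 (56.5 ± 4.48), and the 3 were within their SDs of each other. Sf3b5 moved to the last place (18.6 ± 0.836), below Sf3b6 (21.7 ± 0.743).

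The order depended on the length used. With the longest coding transcript in place of all exons, Sf3b2 (127 ± 3.36 CPM per kilobase), Sf3b3 (96.3 ± 3.11) and Sf3b1 (95.1 ± 2.13) led in nt-shRNA, the last pair within their SDs, and Sf3b6 rose to the fifth place (49.2 ± 1.25). Sf3b5, last by that length, would stand at 120.1 ± 2.5 CPM per kilobase in nt-shRNA, 100.4 ± 8.5 in shRNA1 and 97.5 ± 4.38 in shRNA2 if all its fragments came from the RefSeq gene. The fold changes of the main fit, made without gene length offsets, do not depend on these lengths.

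**Figure D3:**
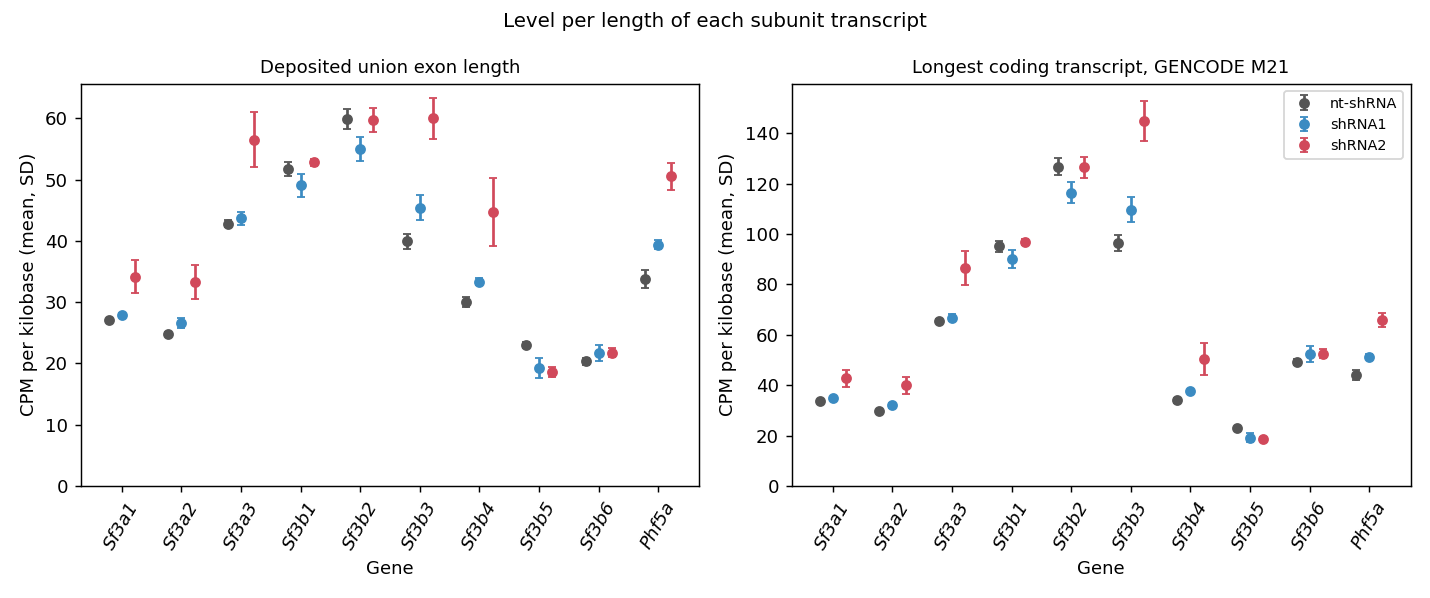
Mean level per kilobase (CPM per kilobase, linear axis from 0) of the 10 genes in nt-shRNA (n = 2), shRNA1 (n = 3) and shRNA2 (n = 3), with SD bars, by the deposited exon length (left) and by the longest coding transcript (right). Sf3b2 leads in nt-shRNA on both scales, Sf3b3 reaches or passes it in shRNA2, and the place of Sf3b6 changes with the length.

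Promoter sequence was compared because 3 SF3A and 3 SF3B genes rose in shRNA2. Windows from 250 bases before to 50 bases after the RefSeq start (GRCm38.p6) were available for 7 members, which were Sf3a1, Sf3a2, Sf3a3, Sf3b1, Sf3b2, Sf3b3 and Sf3b6, and 8 motifs were searched on both strands. CCGGAAG, the core bound by ETS factors such as GABPA, was found in 6 of the 7, all but Sf3b1. It was in 8.86% of all 32851 windows, and 18.3% of 11943 tested genes had it. Those 6 comprise the 4 genes with a window that rose in shRNA2 (Sf3a1, Sf3a2, Sf3a3 and Sf3b3) and 2 that did not pass the test (Sf3b2 and Sf3b6). Each match is shown with 10 bases on either side, 5′ to 3′ on the strand of the gene, with the motif in capitals (CTTCCGG where it is on the other strand).
Sf3a1, chr11:4160337-4160363, plus strand: gagggcgggaCCGGAAGtgctcccgcg
Sf3a2, chr10:80798649-80798675, plus strand: gcctttgctcCCGGAAGggatcgcttc
Sf3a3, chr4:124714761-124714787, plus strand: ccccaagacaCTTCCGGgacacgcgga
Sf3b2, chr19:5295452-5295478, minus strand: gattacgcaaCCGGAAGtttctggaag
Sf3b3, chr8:110847016-110847042, minus strand: ccggtgggcgCTTCCGGgcttgcgagg
Sf3b6, first match, chr12:4817513-4817539, plus strand: cgccccgcccCTTCCGGtccgcaatcc
Sf3b6, second match, chr12:4817528-4817554, plus strand: ggtccgcaatCCGGAAGcgttctggag
The matches shown begin 7 to 229 bases before the start, and those of Sf3a1 and Sf3b2 begin within 11 bases of it. The 2 matches of Sf3b6 lie 15 bases apart on opposite strands.

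The other motifs are given beside their share of all windows and then of the tested genes. GGGCGG (an SP1 core) was in 4 of the 7 members (35.7% and 66.2%), and CCAAT (the NF-Y core) in 2 (37.4% and 43%). AAGATGG (the YY1 core) was in 1 (6.34% and 7.9%), and TATAAA in 1 (13.6% and 8.74%). CACGTG (an E-box), TGACGTCA (the CRE) and the NRF1 motif were in 0 of the 7. Their shares were 7.15%, 1.79% and 1% of all windows and 11.4%, 3.37% and 2.14% of the tested genes. A match describes the letters of a window, and says nothing of binding or of the changes above. No motif of the 8 contains another.

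The other genes of the pathway were taken from lists of U2, minor-spliceosome and U5 proteins, chosen like the members with earlier results of these data known. The counts below stand beside 27.2% of all tested genes higher and 28.7% lower in shRNA2, 13.8% and 17.1% in shRNA1, and 16.9% and 18.7% in the direct test. Of 9 genes for U2-specific and branch-site recognition proteins, 8 were tested. In shRNA2, 4 rose and 0 fell (median log2 fold change 0.14), in shRNA1 2 rose and 2 fell (0.01), and in the direct test 6 were higher in shRNA2 and 0 lower (0.26). Ddx39b, the helicase UAP56 that aids U2 recruitment, had the largest called change, from 233 and 238 CPM in nt-shRNA to 355, 392 and 359 CPM in shRNA2 (0.64 ± 0.06, adjusted p = 7.0e-08), and was at 275, 288 and 290 CPM in shRNA1. The smallest called change was that of Snrpa1, which binds the U2 RNA with Snrpb2, from 96.8 and 98.7 to 108, 107 and 111 CPM (0.15 ± 0.06, adjusted p = 0.0366), and its shRNA1 levels of 113, 106 and 107 CPM overlapped those of shRNA2. Without nt-shRNA replicate 2 the count higher in shRNA2 was 2, and with library size alone it was 8.

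Of 16 genes whose proteins load, proofread or release U2, 14 rose and 0 fell in shRNA2 (median 0.36), 5 rose and 1 fell in shRNA1 (0.09), and 12 were higher and 0 lower in the direct test (0.23). Smndc1 (SPF30), needed for tri-snRNP entry after U2 binding, changed most, from 78.8 and 76.1 CPM in nt-shRNA to 106, 107 and 98.9 CPM in shRNA1 and 149.5, 165 and 137 CPM in shRNA2. The groups did not overlap, and the log2 fold change was 0.96 ± 0.07 in shRNA2 (adjusted p = 3.9e-09) and 0.43 ± 0.07 in shRNA1 (adjusted p = 2.3e-04). Rbm17 (SPF45), which binds Sf3b1 at short introns, had the smallest called change, from 232 and 233 to 262, 286 and 239 CPM (0.17 ± 0.07, adjusted p = 0.0367), and was at 216, 213 and 225 CPM in shRNA1.

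The Sm ring, the 7-protein core that U2 shares with the U1, U4 and U5 snRNPs, had 4 genes higher and 0 lower in shRNA2 (median 0.23), 0 higher and 1 lower in shRNA1 (0.03), and 5 higher and 0 lower in the direct test (0.17). The called changes in shRNA2 ran from 0.23 ± 0.06 for Snrpd3 (adjusted p = 0.00358) to 0.29 ± 0.08 for Snrpf (adjusted p = 0.00611). Snrpf was at 41.1 and 38.2 CPM in nt-shRNA, 40.7, 47.2 and 42.4 CPM in shRNA1, and 46.5, 52.1 and 46.4 CPM in shRNA2. With GC content offsets the count higher in shRNA2 was 2, and with library size alone 3 were higher and 0 lower in shRNA1 and 3 higher in the direct test. Without the filter 2 were lower in shRNA1 and 3 higher in the direct test, and gene length offsets also gave 2 lower in shRNA1. The direct count was 2 without shRNA1 replicate 2, shRNA2 replicate 1 or shRNA2 replicate 2.

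For the U11/U12 di-snRNP, which also holds SF3B, 3 of 8 genes rose and 1 fell in shRNA2 (median 0.08), and 2 fell with the replicate block, without the filter or with gene length offsets. For the same list 0 passed in shRNA1 by edgeR (2 higher and 2 lower at an unadjusted p under 0.05, and 0 by DESeq2, median -0.08), and 2 were higher and 1 lower directly (0.10). The shRNA1 counts were 2 higher and 2 lower with the replicate block, and 2 higher and 0 lower with library size alone. Gene length offsets gave 0 higher and 1 lower there. Rnpc3, the U11/U12 65K protein, was at 20.7 and 19.3 CPM in nt-shRNA, 26.3, 24.7 and 20.6 CPM in shRNA1, and 31.3, 29.3 and 26.8 CPM in shRNA2 (0.54 ± 0.10, adjusted p = 2.2e-04). Pdcd7, the 59K protein, was at 55.5 and 57.7 CPM in nt-shRNA, 53.7, 52.1 and 55.9 CPM in shRNA1, and 48.0, 44.0 and 48.6 CPM in shRNA2 (-0.27 ± 0.07, adjusted p = 0.00291). Transcripts of these 2 genes of the same particle thus moved in opposite directions in shRNA2. The direct counts were 4 and 0 with GC content offsets, 1 gene was higher without shRNA2 replicate 1, and 0 were lower without shRNA1 replicate 3 or shRNA2 replicate 2.

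Of 8 U5 snRNP genes, 6 rose in shRNA2 and 1, Eftud2, fell (median 0.26). In shRNA1 2 rose and 0 fell (0.06), and in the direct test 6 were higher and 0 lower (0.23). Prpf8, the U5 protein at the catalytic centre, was at 579 and 571 CPM in nt-shRNA, 666, 653 and 656 CPM in shRNA1, and 885, 996 and 815 CPM in shRNA2. Its log2 fold change was 0.64 ± 0.07 in shRNA2 (adjusted p = 4.5e-07) and 0.19 ± 0.07 in shRNA1 (adjusted p = 0.0449). The count higher in shRNA1 was 0 with gene length offsets, without any 1 of the shRNA1 libraries, without either nt-shRNA library and without shRNA2 replicate 1, and 5 with library size alone. Counts of the other lists in shRNA1 also moved with single libraries. The branch-site recognition list had 1 gene higher without shRNA1 replicate 1 or either nt-shRNA library, and 0 lower without nt-shRNA replicate 1. For the genes that load, proofread or release U2, 3 were higher without shRNA1 replicate 2 or nt-shRNA replicate 2 and 2 without nt-shRNA replicate 1, while gene length offsets gave 3 higher and library size alone 10. In that list 0 were lower with library size alone, without the filter and with at least 10 counts in every library. The minor-spliceosome list had 2 higher and 1 lower without shRNA1 replicate 3.

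**Figure D4:**
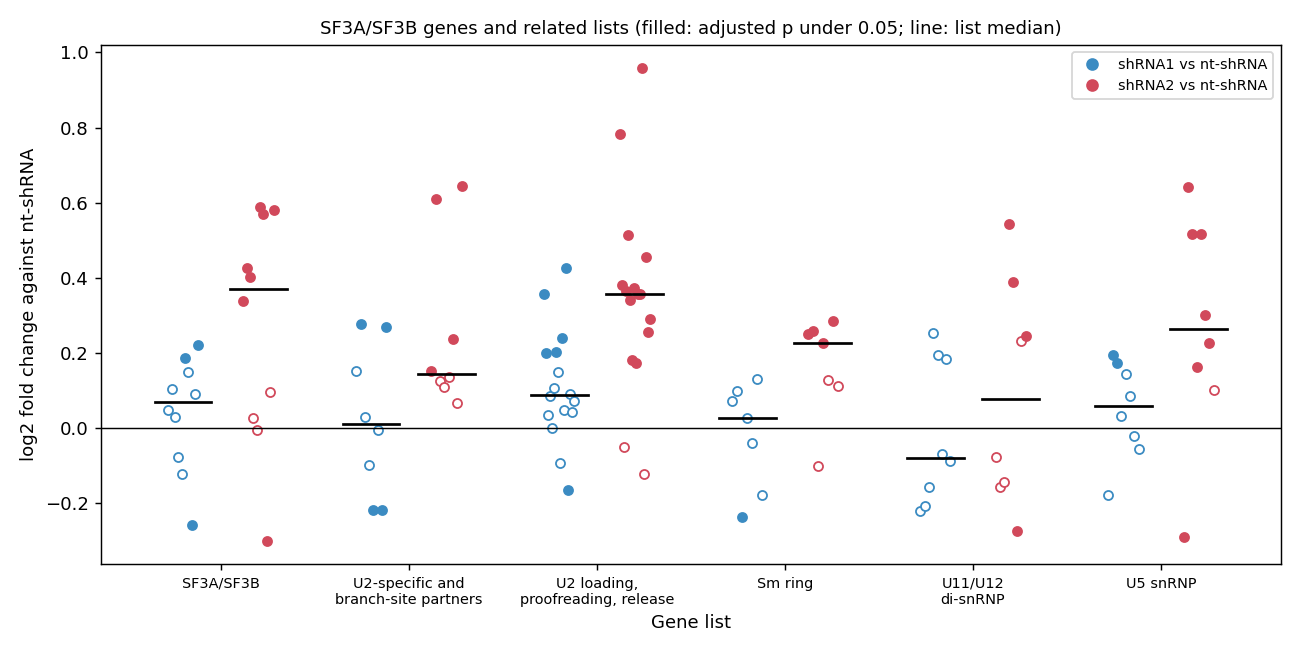
Log2 fold change against nt-shRNA (y axis) of the tested genes of the SF3A/SF3B list and the related lists, in shRNA1 and shRNA2; each point is a gene, filled where the adjusted p was under 0.05, and each line is the median of a list. The shRNA2 medians are 0.37 for SF3A/SF3B, 0.14, 0.36, 0.23, 0.08 and 0.26 for the other lists from left to right, against 0.00 over all tested genes, and Sf3b5 and Eftud2 are the lowest points of their lists.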

How the data were processed

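Per the file headers, the authors counted paired fragments per gene over exons of GENCODE M24 with featureCounts 1.6.2, with no strand, no multi-mapped fragment and no fragment shared between genes, after STAR alignment of poly(A) RNA reads to GRCm38 (mm10). The deposited values are raw counts for 8 libraries, and no per-sample column was left out. Symbols were matched for 55144 of 55385 genes (GENCODE M21).

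Genes passing filterByExpr (minimum count 10) were scaled by TMM and fitted with edgeR 4.0.16 (glmQLFit, glmQLFTest, R 4.3.3) over all 8 libraries. Tests were two-sided, and p-values were adjusted by Benjamini-Hochberg over 17445 genes, with calls at an adjusted p under 0.05.

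The members and lists were chosen with earlier results of these data known. Genes named beside the members were Eftud2, the genes of each list with the largest and smallest called change in shRNA2, and the 3 profiles most like the member with the smallest adjusted p. Alternatives were DESeq2 1.42.0, other scalings and filters, gene length and GC content offsets (the latter chosen after seeing the data), a replicate block, and each library left out. No 2 libraries of a group agreed within sampling noise.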

Additional observations from a re-analysis of the deposited data

How the results depend on the processing

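Of 570 refits of a member in a comparison, 536 kept the direction and side of the threshold or stayed uncalled, 13 lost a call, 19 gained one and 2 turned direction. The 7 calls in shRNA2 and the 6 between the hairpins held in every alternative run. The 2 that turned were Sf3b1 in shRNA2, at -0.22 with GC content offsets and -0.23 with GC content offsets and the replicate block. GC content offsets gave 2 members lower in both knockdowns, with and without the block. Shares of all genes called in the offset refits, and in those with a library left out, are not given here. The member counts of these refits therefore do not show whether members moved more than other genes. In shRNA1, library size alone gave 5 members higher and 0 lower, and gene length offsets gave 1 higher and 3 lower (1 and 2 with the block). Leaving out 1 library gave 0 to 2 higher and 0 to 1 lower in shRNA1. Eftud2 passed the threshold in shRNA1 without the filter (-0.18), with the replicate block (-0.21), with length offsets (-0.26, and -0.29 with the block), with GC content offsets (-0.21, and -0.24 with the block) and with only the groups compared (-0.16). It was uncalled at -0.06 with library size alone (adjusted p = 0.498) and at -0.15 with at least 10 counts in every library (adjusted p = 0.101). It was also uncalled by the DESeq2 Wald test (-0.18, adjusted p = 0.0619) and with DESeq2 size factors in edgeR (-0.18, adjusted p = 0.0564). Over libraries left out it was -0.20 to -0.16 in shRNA1 and -0.19 to -0.07 between the hairpins. The cause was not tested. Same-numbered libraries did not deviate together (r from -0.03 to 0.07 over 7 pairs), so the numbers were not read as pairs, and the replicate block alone changed no member count. Only 2 control libraries bear on every comparison with nt-shRNA, and depth did not limit the members, whose lowest level was 57.0 CPM (Sf3b6).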

Other observations

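Because Sf3b5 has 1 exon, protein-coding genes with 1 merged exon block were tabulated after its values were seen. Of 437 such tested genes, 36.8% rose and 16% fell in shRNA2 against nt-shRNA (median log2 fold change 0.24), while of 13935 with more blocks 27.4% rose and 32.2% fell (-0.03). In shRNA1 19.5% rose and 10.5% fell (0.12), beside 14.4% and 19.3% (-0.01). Sf3b5, at -0.30 and -0.26, lay below the median of the single-exon genes in both knockdowns.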
